A study of Mus musculus with 6 samples.

Results

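Long intergenic noncoding RNAs (lincRNAs) that were expressed in the mouse heart were compared between wild-type (WT) mice and mice without the melanocortin-4 receptor. They were chosen by level: the genes that the deposited table gives the biotype lincRNA and whose FPKM (fragments per kilobase of transcript, scaled to the depth of the library) averaged at least 0.5 over the 6 libraries. There were 262 of them among 5559 lincRNA entries and 54532 genes in all, and 1723 of the lincRNA entries had a value above 0. Since the level chose them, it is described here without a test. The 3 entries just below the limit were Gm44117 at 0.490, Gm27030 at 0.491 and Gm15835 at 0.492 FPKM, and the 3 just above it were D730003I15Rik at 0.502, Gm28723 at 0.505 and Ino80dos at 0.505 FPKM.

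The hearts came from 3 WT and 3 Mc4r KO mice of 12 weeks, with 1 library per mouse. Both groups were littermates from heterozygous matings on a C57B/6/N background and ate standard chow, and the KO mice were homozygous, so the receptor was missing in every tissue and not in the heart alone. The labels call the tissue heart, while the sample titles say muscle, and the study's discussion places the sequenced tissue in the left ventricle of males. The study asked which transcripts differ before heart function does. Mc4r itself had 0, 0 and 2 reads in WT replicates 1, 2 and 3 and 0 reads in each of the 3 Mc4r KO libraries, which is under the floor of 3 reads per library and too few to check the labels.

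LincRNAs are transcribed by RNA polymerase II from stretches between protein-coding genes, and most are spliced, capped and polyadenylated like messenger RNAs. Some act in the nucleus, as the scaffold of paraspeckles does. Others are hosts whose introns or exons give rise to microRNAs or small nucleolar RNAs, and a few that were first called noncoding are now known to encode short peptides. In the heart they have been studied as regulators of lineage choice and of hypertrophic growth.

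Each library held between 14691076 and 16047003 reads on genes. Transcripts of the mitochondrial chromosome took 59.3%, 57.4% and 47.1% of all FPKM in WT replicates 1, 2 and 3. In Mc4r KO they took 43.6%, 46.6% and 43.0%, so WT replicate 3 was nearer to those libraries. The study's GC content of the clean reads was likewise lower in WT replicates 1 and 2 than in WT replicate 3 and the Mc4r KO libraries. WT replicate 3 stood apart from the other WT libraries: its 5 atrial markers summed to 798 FPKM, against 28.7 and 95.2 in WT replicates 1 and 2 and 6.29 to 137 in the Mc4r KO libraries. The 7 cardiomyocyte markers were abundant in each library. Their sums did not overlap, at 12772, 12942 and 12271 FPKM in WT and 14846, 16379 and 15643 FPKM in Mc4r KO. Actc1 made the largest part, with 5495, 5470 and 4568 FPKM in WT and 7123, 8307 and 7188 FPKM in Mc4r KO. Myl2 and Ryr2 were also higher without overlap, while Myh6, Tnnt2, Tnni3 and Pln overlapped. Pln went the other way, with 690, 601 and 452 FPKM in WT and 434, 470 and 461 FPKM in Mc4r KO. These sums were not scaled to the mitochondrial share. The part of these differences in the results below was not tested. Adipocyte markers summed to at most 1.02 FPKM and lymphocyte markers to at most 1.97 FPKM. Skeletal muscle markers summed to 492, 594 and 356.5 FPKM in WT and 574, 959 and 648 FPKM in Mc4r KO. Acta1 and Ckm made nearly all of these sums, while Myh4, Myh1, Tnnt3 and Tnni2 were each at most 0.958 FPKM in any library.

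The expressed lincRNAs were short and of low abundance. Their median FPKM was 1.31 and their median length 1197 bases, from 154 to 20771, against 4.47 FPKM and 4380 bases for the 11471 protein-coding genes that met the same level. The median lincRNA rested on 26.7 reads per library. In 54 of the 262 the average was under 10 reads, in 215 it was under 100, and in 6 it was at least 1000. A mean of 10 FPKM or more was reached by 17 members, 139 lay from 1 to 10 FPKM, and 106 lay under 1 FPKM. The level was met in each of the 6 libraries by 167 members.

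Most of these transcripts have no functional name. Of the 262, 151 carry a Gm number, 70 the name of a RIKEN clone and 13 the accession of a genomic clone. All 262 were found in the GENCODE M21 annotation of GRCm38, the build also called mm10, and 255 have the type lincRNA there. In that annotation 36 have a single exon, 88 have at most 2 and 138 have 3 or more. Chromosome 5 held 24, chromosome 1 held 22 and chromosome 6 held 19, and the X and Y chromosomes held 1 each.

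Their surroundings bear on what was counted. The median distance from a member's start to the nearest protein-coding start was 24028 bases, 74 members lay over 50000 bases away, and 44 lay within 1000 bases. Of those 44, 35 ran away from the coding gene, as divergent transcripts do. Exons of another gene overlapped at least 5% of the exonic bases of 46 members, and 78 members shared at least 5% of their bases, in words of 50, with transcripts of other genes. The use of strand in counting is not given in the sources used here, so reads of overlapping partners cannot be told apart. The other 184 members were under both limits.

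The 3′ ends were compared because the libraries were made from polyadenylated RNA. The poly(A) signal AATAAA stood within the last 50 bases of at least 1 annotated transcript in 134 of 262 members (51.2%) and in 77.8% of 11461 protein-coding genes of the same level. With the variant ATTAAA included, these shares were 61.5% and 89.8%. These are descriptions of the annotation, and an end that is annotated short would have the same appearance. A gene with more annotated transcripts has more ends in which to find a signal, and the shares were not adjusted for that number.

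The most abundant member was Malat1, a nuclear RNA that gathers in speckles, with 132, 86.4 and 107 FPKM in WT and 71.0, 91.8 and 121 FPKM in Mc4r KO. The groups overlapped widely. Its log2 fold change (Mc4r KO minus WT) was −0.21 with a 95% interval from −0.74 to 0.31 (limma, adjusted p = 0.623). Malat1 alone made up between 7.69% and 12.5% of the summed FPKM of the 262 members in each library.

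Gm44386, an unnamed transcript 8219 bases from Pcbp1, stood second with 97.0, 78.9 and 63.9 FPKM in WT and 55.9, 59.8 and 67.9 FPKM in Mc4r KO. WT was higher on average, but WT replicate 3 lay below Mc4r KO replicate 3, and the difference of −0.37 did not pass the test (SE 0.16, adjusted p = 0.245). Next was Gm10076, with values from 29.2 to 105 FPKM. Words shared with Rpl41, a ribosomal protein gene, and with 3 further genes covered 99.3% of its bases, so its level is uncertain.

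1700020I14Rik, with 8306 exonic bases and 2010 bases from Oip5, had 57.7, 52.5 and 43.5 FPKM in WT and 44.3, 46.4 and 46.6 FPKM in Mc4r KO. 2900097C17Rik, also known as Norad, binds Pumilio proteins in the cytoplasm, and its FPKM ranged little, at 36.1, 38.6 and 42.0 in WT and 38.4, 35.7 and 40.1 in Mc4r KO. Its log2 fold change was −0.03 with an interval from −0.24 to 0.18. Words shared with Gm7292 covered 52.3% of it.

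Gm5532 had 37.6, 37.7 and 25.2 FPKM in WT and 37.0, 35.3 and 39.4 FPKM in Mc4r KO, with WT replicate 3 alone at the bottom. 1810058I24Rik, now known as Stmp1, encodes a short transmembrane peptide of mitochondria. It had 27.9, 27.8 and 22.0 FPKM in WT and 21.7, 22.4 and 23.8 FPKM in Mc4r KO, so that WT replicate 3 sat among the Mc4r KO libraries. Its log2 fold change of −0.18 did not pass the test (SE 0.11, adjusted p = 0.401).

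Among these 10, the groups did not overlap for a pair of transcripts. Lsmem2, named for a leucine-rich single-pass membrane protein but given the biotype lincRNA in the table, had 18.1, 23.4 and 29.6 FPKM in WT and 31.6, 38.2 and 37.3 FPKM in Mc4r KO. All 3 Mc4r KO libraries were higher, WT replicate 3 came closest to them, and the log2 fold change was 0.61 (SE 0.18, adjusted p = 0.130). Tmem250-ps had 22.7, 21.8 and 24.2 FPKM in WT and 27.0, 27.5 and 25.8 FPKM in Mc4r KO, with a log2 fold change of 0.23 (SE 0.079, adjusted p = 0.175). Neither difference passed the test. Tmem250-ps shares 21.6% of its bases with 1810012K08Rik on the opposite strand.

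**Figure D1:**
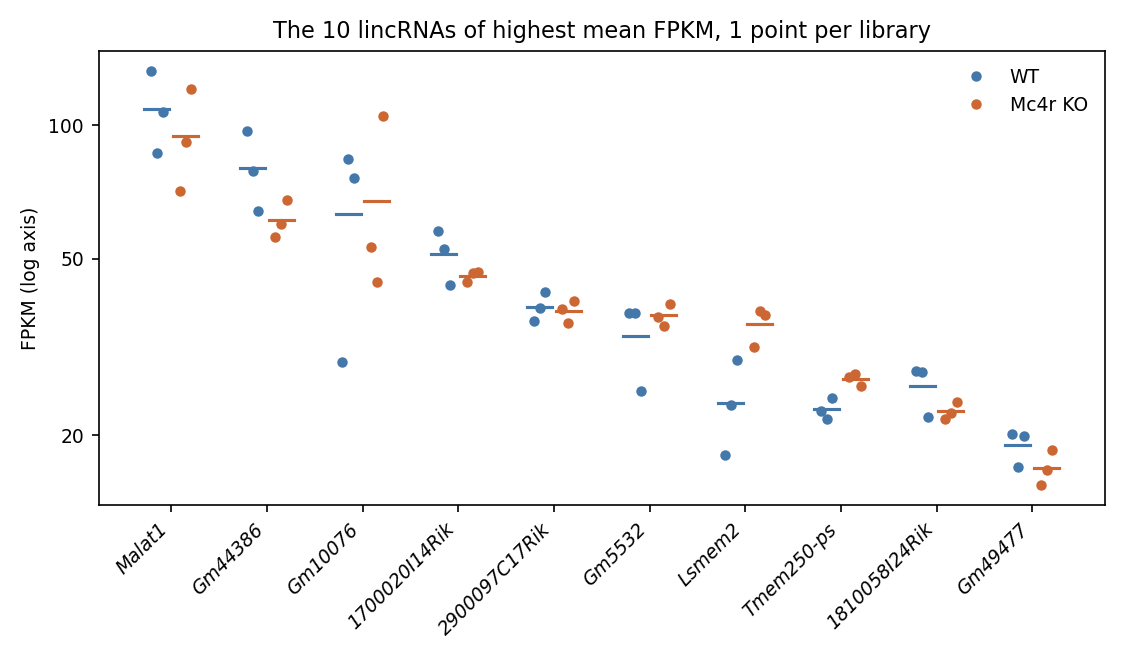
FPKM on a log axis of the 10 lincRNAs with the highest mean, 1 point per library and a bar at the group mean, for 3 WT and 3 Mc4r KO hearts. The WT and Mc4r KO points are apart for Lsmem2 and Tmem250-ps and overlap for the other 8, and Malat1 spans 71.0 to 132 FPKM.

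Between Mc4r KO and WT, 2 of the 262 lincRNAs passed the test, Gm15906 higher and Gm29156 lower in Mc4r KO. A call needed a limma adjusted p under 0.05 over all 18035 genes tested and an absolute log2 fold change above 0.75. Of all genes tested 83, or 0.46%, were called, so the 2 members (0.763%) were near the background. In heart tissue, fewer cells of a type and less RNA per cell cannot be told apart. Both calls rested on few reads, and each gene met the level of 0.5 FPKM through 1 group alone, so that part of the difference came with the choice.

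Gm15906 is a spliced transcript of 323 bases at chr4:129135091-129136910 on the plus strand, of unknown role. It had 0.439, 0.216 and 0.182 FPKM in WT and 2.19, 3.46 and 1.35 FPKM in Mc4r KO, and the lowest Mc4r KO value was over the highest WT value. The reads behind these values were 2, 1 and 1 in WT and 11, 17 and 7 in Mc4r KO. The fitted log2 fold change was 2.65 with an interval from 1.74 to 3.56 (adjusted p = 0.0445). The ratio of the summed reads, scaled to depth, was 8.51 with a 95% exact interval from 3.04 to 33.0 that covers counting error only. Its end lies 89 bases before the protein-coding gene Fndc5, the precursor of irisin, on the same strand. Fndc5 averaged 131 FPKM and had a log2 fold change of 0.29 (adjusted p = 0.197), and its part in the reads of Gm15906 was not tested.

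Gm29156 is a transcript of 499 bases with 1 exon at chr1:43745784-43746282 on the minus strand, 684 bases from Uxs1, an enzyme gene of UDP-xylose synthesis on the same strand. It had 1.14, 0.977 and 0.941 FPKM in WT, from 8, 7 and 8 reads, and no read in any Mc4r KO library. Against the floor of 3 reads per library it was at least 2.64-fold lower in Mc4r KO. Limma gave an adjusted p of 0.00974 and a fitted log2 fold change of −3.48. The 3 Mc4r KO values were all set by the pseudocount of 0.1 FPKM and so had an SD of 0 on the log2 scale. Both the p and the fold change depend on this, and the fold change is no bound. At this depth a low level in Mc4r KO could not be told from 0. Neither gene overlaps exons of another gene or shares words with one.

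The last 100 bases of both called transcripts, from GENCODE M21, are shown as cDNA from 5′ to 3′ because the poly(A) signal was searched there. Capitals would mark AATAAA or ATTAAA, and there were none in either window.
Gm15906: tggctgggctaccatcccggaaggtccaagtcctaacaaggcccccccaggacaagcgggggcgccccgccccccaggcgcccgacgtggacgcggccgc
Gm29156: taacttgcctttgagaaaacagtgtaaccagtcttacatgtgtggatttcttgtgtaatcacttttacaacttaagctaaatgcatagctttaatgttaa

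Both calls depended on single libraries. Without WT replicate 3, 10 members were called, 3 higher and 7 lower, beside 3.5% of all genes. They were Gm15906, Gm29156, Lsmem2, 2310020H05Rik, Gm27202, 2310075C17Rik, Gm36670, 2310015K22Rik, E030044B06Rik and AC154378.1. Without any 1 of the other 5 libraries, no member was called, while 31 to 41 of 262 members had an unadjusted limma p under 0.05. Over all 18035 genes, these fits called 0 to 7, and 2467 to 2913 had an unadjusted limma p under 0.05. The loss of calls was thus general and not particular to the members. With limma voom on the reads recovered from the FPKM, 4 members were called, namely Gm15906, 2310015K22Rik, Gm29156 and Gm36670, beside 1.76% of all genes.

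Over all members, differences were counted beside the same counts for all genes. An unadjusted p under 0.05 was found for 44 members (16.8%) and for 20.9% of all genes tested. The 3 values of one group lay wholly above those of the other for 22 members that were higher in Mc4r KO (8.40%, background 14.1%) and for 28 that were lower (10.7%, background 12.4%). When FPKM were scaled to the sum outside the mitochondrial chromosome, these counts became 10 (3.82%, against 6.42% of all genes) and 50 (19.1%, against 22.3% of all genes), and the median over the log2 fold changes of all genes moved from −0.01 to −0.19.

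The median log2 fold change of the members was −0.08, with 111 above 0 and 151 below, and after the same scaling it was −0.26, close to the shift of all genes. A fold change beyond 0.75 on the log2 scale was seen in 44 members, 19 up and 25 down, and 101 lay within 0.25 of 0. For 70 members the 95% interval lay wholly within 0.75 either way. The median SE was 0.267, against 0.140 for protein-coding genes at the same level.

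Other classes of genes were counted in the same way. At the same level, 2 of 224 antisense RNAs, 1 of 102 processed transcripts and 60 of 11471 protein-coding genes were called. The median absolute log2 fold change was 0.332 in lincRNAs, 0.367 in antisense RNAs, 0.313 in processed transcripts and 0.210 in protein-coding genes. The difference between the classes was not tested.

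**Figure D2:**
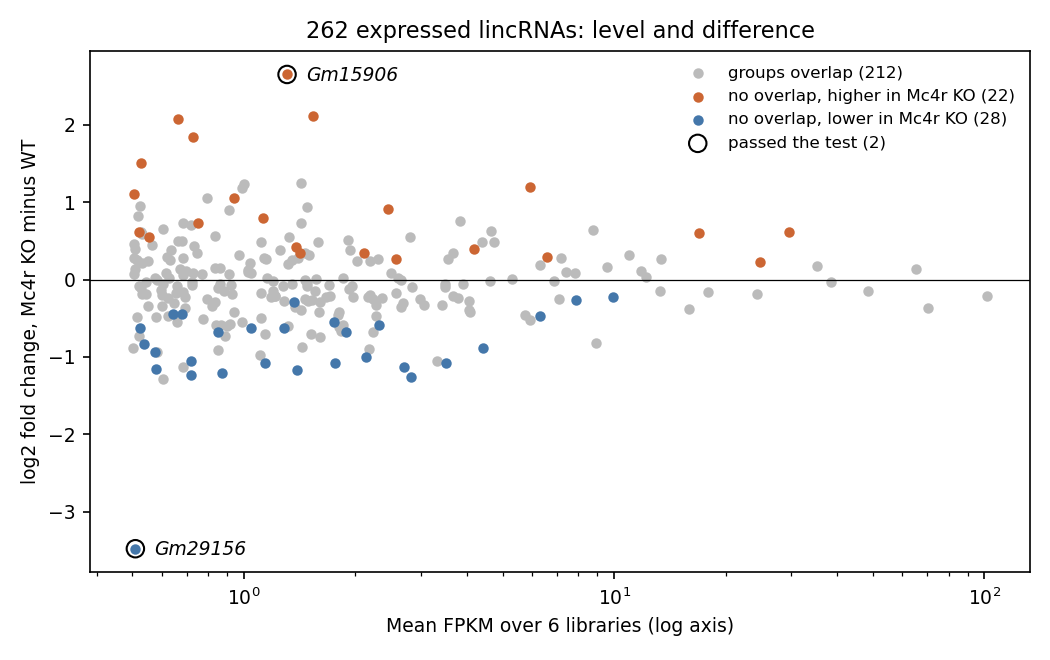
Each point is 1 of the 262 expressed lincRNAs, with its mean FPKM over the 6 libraries on a log axis and its log2 fold change (Mc4r KO minus WT). The 22 members in orange and the 28 in blue have groups that do not overlap, and the 2 circled ones passed the test, with Gm15906 at 2.65 and Gm29156 at −3.48.

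The choice by level shaped some of these counts. In 21 members the WT mean was under 0.5 FPKM, so that they entered through Mc4r KO, and 7 of them had groups without overlap, all higher. In 20 members the Mc4r KO mean was under 0.5 FPKM, and 8 of them had groups without overlap, all lower. Among the 221 with both means at or above the level, no gene was called. An unadjusted p under 0.05 was found for 32 of them (14.5%, against 20.9% of all genes), 15 were higher without overlap (6.79%, against 14.1%) and 20 were lower (9.05%, against 12.4%).

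The number of reads set how small a difference could be seen. With under 10 reads per library, 10 of 54 members had an unadjusted p under 0.05, and the median SE was 0.401. With 10 to 100 reads it was 27 of 161 and an SE of 0.257. With 100 reads or more it was 7 of 47 (14.9%, against 28.9% of 9599 genes with as many reads) and an SE of 0.158. In the lowest class the comparison with other genes is uneven, as a member must be short to reach 0.5 FPKM with so few reads.

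**Figure D3:**
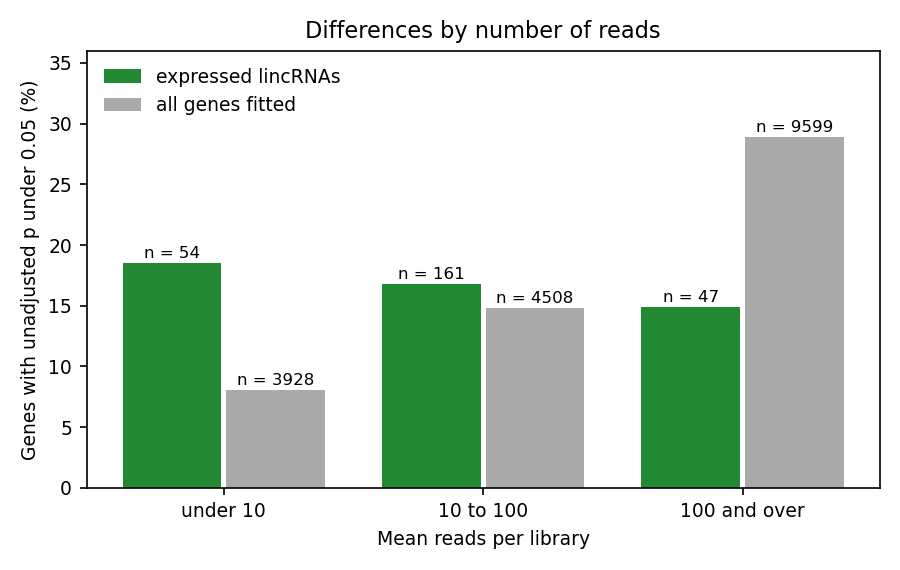
Share of genes with an unadjusted limma p under 0.05 by mean reads per library, for the expressed lincRNAs (green) and all genes tested (grey), with the number of genes above each bar. The lincRNAs go from 18.5% to 16.8% to 14.9%, and all genes from 8.04% to 14.8% to 28.9%.

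The 20 members of lowest p, 10 in each direction, show what the differences looked like. Of the 10 higher in Mc4r KO, Gm38832 lies 8278 bases from St3gal5, a ganglioside synthase gene, and has no known role. It had 0.709, 0.522 and 0.294 FPKM in WT and 1.45, 3.13 and 3.12 FPKM in Mc4r KO (log2 fold change 2.11, SE 0.37, adjusted p = 0.0586). All 3 Mc4r KO libraries were higher, on 2 to 20 reads per library. 2310015K22Rik starts 6571 bases from the start of Fam124b and runs away from it. It had 0.291, 0.0953 and 0.482 FPKM in WT and 1.06, 1.22 and 1.24 FPKM in Mc4r KO (log2 fold change 1.84, SE 0.39, adjusted p = 0.0835). The Mc4r KO libraries were close together and the WT libraries were spread.

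E330017L17Rik, of 4 exons, had 1.24, 2.16 and 1.69 FPKM in WT and 3.32, 3.39 and 2.88 FPKM in Mc4r KO, from 23 to 68 reads per library (log2 fold change 0.91, SE 0.20, adjusted p = 0.0883). Gm30735 had 2.93, 3.16 and 3.88 FPKM in WT and 4.17, 8.70 and 12.6 FPKM in Mc4r KO (log2 fold change 1.20, SE 0.37, adjusted p = 0.137). Its groups did not overlap, yet Mc4r KO replicate 1 stood near WT. Lppos, which starts 81 bases from the start of Lpp on the opposite strand, went from 3.47 to 3.77 FPKM in WT and from 4.15 to 5.22 FPKM in Mc4r KO. Gm49207 shares 81.7% of its bases with Ahsa1, an Hsp90 co-chaperone gene, and had 3 reads in all of WT against 14 in Mc4r KO, a ratio of 4.54 with a counting interval from 1.27 to 24.6. Gm28723 had 0.209 to 0.354 FPKM in WT and 0.592 to 0.837 FPKM in Mc4r KO. Gm29040 had 0.117 to 0.358 FPKM in WT and 0.434 to 1.05 FPKM in Mc4r KO, and Lsmem2 and Gm15906 were described above.

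Of the 10 lower in Mc4r KO, Gm36670 had the lowest p after Gm29156. It lies 172028 bases from Irx3, a homeobox gene of the ventricular conduction system, and had 1.26, 1.28 and 1.22 FPKM in WT and 0.593, 0.379 and 0.502 FPKM in Mc4r KO. The WT libraries differed by less than 0.1 FPKM, on 31, 32 and 36 reads, and the log2 fold change was −1.21 (SE 0.20, adjusted p = 0.0554). E030044B06Rik had 0.840, 0.880 and 0.788 FPKM in WT and 0.356, 0.260 and 0.345 FPKM in Mc4r KO (log2 fold change −1.16, SE 0.21, adjusted p = 0.0635). In both genes every Mc4r KO library was well below every WT library, and both missed the adjusted threshold.

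Gm26795 had more reads, from 54 to 98 per library, and each group kept a narrow range, with 3.05, 2.63 and 2.75 FPKM in WT and 1.81, 1.70 and 1.99 FPKM in Mc4r KO (log2 fold change −0.59, SE 0.12, adjusted p = 0.0820). 2310075C17Rik had 1.96, 2.78 and 1.26 FPKM in WT and 0.790, 0.808 and 0.765 FPKM in Mc4r KO, with 4 reads in each Mc4r KO library. The other 5 were 2310015D24Rik, Gm47850, Gm26779, CT030636.1 and AC154378.1, with log2 fold changes from −1.08 to −0.83 and adjusted p from 0.0961 to 0.129.

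**Figure D4:**
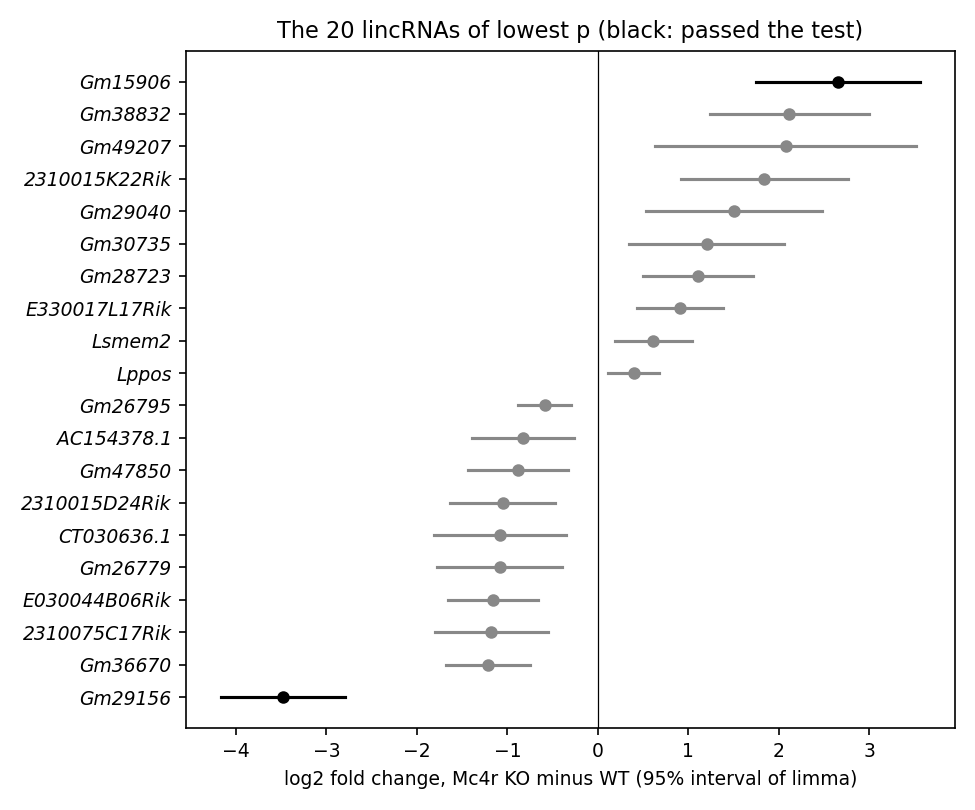
Log2 fold change (Mc4r KO minus WT) with the 95% interval of limma for the 10 higher and 10 lower lincRNAs of lowest p. No interval reaches 0, because the genes were chosen by p, and Gm15906 and Gm29156 (black) were called.

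Promoters are shown for the pair in each direction that had the lowest p among members whose RefSeq start lay within 100 bases of the deposited start. They are RefSeq sequences of GRCm38.p6, 250 bases before to 50 bases after the start, read along the gene's strand. Capitals mark 4 words on either strand. The TATA box was searched as TATAAA, the GC box as GGGCGG, the E-box as CACGTG, and the CCAAT box by the letters of its name.
E330017L17Rik, chr4:129905976-129906275, plus strand: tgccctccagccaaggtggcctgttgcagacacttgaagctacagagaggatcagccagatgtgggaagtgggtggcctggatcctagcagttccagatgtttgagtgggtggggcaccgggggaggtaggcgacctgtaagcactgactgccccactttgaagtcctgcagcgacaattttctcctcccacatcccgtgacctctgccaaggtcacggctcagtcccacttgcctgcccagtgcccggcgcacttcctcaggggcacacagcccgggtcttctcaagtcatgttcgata
Lsmem2, chr9:107597026-107597325, minus strand: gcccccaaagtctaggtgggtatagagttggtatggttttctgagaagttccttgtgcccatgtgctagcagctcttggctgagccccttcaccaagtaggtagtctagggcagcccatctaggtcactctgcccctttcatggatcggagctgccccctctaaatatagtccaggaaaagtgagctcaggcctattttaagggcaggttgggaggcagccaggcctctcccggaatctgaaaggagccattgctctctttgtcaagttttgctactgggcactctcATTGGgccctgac
Gm36670, chr8:91991800-91992099, minus strand: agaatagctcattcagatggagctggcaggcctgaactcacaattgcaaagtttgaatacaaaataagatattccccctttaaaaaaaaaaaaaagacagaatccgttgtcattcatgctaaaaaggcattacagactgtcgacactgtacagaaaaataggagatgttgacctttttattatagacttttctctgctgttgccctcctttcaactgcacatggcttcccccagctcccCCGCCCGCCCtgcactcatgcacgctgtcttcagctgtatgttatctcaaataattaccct
E030044B06Rik, chr19:40868066-40868365, plus strand: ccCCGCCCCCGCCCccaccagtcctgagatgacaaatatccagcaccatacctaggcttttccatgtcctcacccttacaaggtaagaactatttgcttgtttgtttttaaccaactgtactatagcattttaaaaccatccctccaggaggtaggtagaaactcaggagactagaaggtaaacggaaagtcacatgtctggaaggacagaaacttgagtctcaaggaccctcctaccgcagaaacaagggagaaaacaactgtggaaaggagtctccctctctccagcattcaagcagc

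E330017L17Rik held none of the 4 words, Lsmem2 a CCAAT box in reverse near its 3′ edge, and Gm36670 and E030044B06Rik GC boxes in reverse. Among 88 members with such a promoter, TATAAA was found in 14.8%, CCAAT in 34.1%, GGGCGG in 35.2% and CACGTG in 6.82%. Among 27025 promoters of all genes the shares were 14.2%, 37.9%, 35.9% and 7.24%. The median GC content was 53.3% in members and 52.7% in all, so that by these words and by base composition the members' promoters were near the general run. A match is a description, not a site.

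The nearest coding genes were set beside the members. For 229 members the gene at the nearest coding start was tested too, and it had the same sign of change in 124, with a Pearson r of 0.18 across genes, which are not independent. For the 44 members within 1000 bases the same sign was seen in 22, with r = −0.21. Of 25 pairs of members that lay within 50000 bases of each other, 12 had the same sign. Malat1 and Neat1, 22035 bases apart on chromosome 19, had log2 fold changes of −0.21 and 0.27.

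At 5 of the 20 members of lowest p, another gene within 1000000 bases was called. The share of other genes with such a neighbour was not counted, and the 5 are not separate stretches. Gm26779 lies 32263 bases from Gm15446, a zinc finger gene that fell by 3.22 on the log2 scale (adjusted p = 0.0146). 2310015K22Rik lies 448901 bases from Wdfy1, which was higher by 1.90 on that scale (adjusted p = 0.00228). Near Gm29040, which did not pass the test itself (adjusted p = 0.120), 2 genes were called. They were Fhl2, a LIM domain gene of heart muscle 53172 bases away that was higher by 0.91 on the log2 scale (adjusted p = 0.0355), and Gm29156, which was lower, 442859 bases away. Fhl2 was also the called gene near Gm29156, at 548800 bases. For E330017L17Rik it was the called member Gm15906, 769306 bases away. Any relation within these stretches was not tested.

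On chromosome 18, which carries Mc4r, 5 members were found. The nearest, Gm26910, lay 0.913 Mb from Mc4r with a log2 fold change of −0.34 (adjusted p = 0.627), and the others lay 5.21 to 33.1 Mb away with values from −0.46 to 0.49. None of the 5 was called.

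Noncoding RNAs of known role were followed in 8 lists, which also hold genes of other biotypes. No gene of any list was called. In all genes tested, 20.9% had an unadjusted p under 0.05, 14.1% were higher and 12.4% lower without overlap. The list of snoRNA hosts holds genes whose introns release the small nucleolar RNAs that guide modification of ribosomal RNA. Of its 15 genes tested, 2 were higher at an unadjusted p under 0.05 and none lower. Without overlap, 1 was higher and 1 lower. The median log2 fold change was 0.02, beside −0.01 in all genes. Snhg6 had 7.30, 7.29 and 6.20 FPKM in WT and 6.75, 7.12 and 6.58 FPKM in Mc4r KO, a difference of −0.02 with an interval from −0.26 to 0.22. Snhg20 had 1.01, 1.22 and 1.72 FPKM in WT and 1.89, 1.72 and 1.92 FPKM in Mc4r KO (log2 fold change 0.48, SE 0.20, adjusted p = 0.231), with WT replicate 3 at the level of Mc4r KO. Snhg12, Snhg18 and Epb41l4aos had log2 fold changes of 0.25, −0.06 and 0.49.

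Among nuclear and paraspeckle RNAs 5 were tested, none was higher and 1 was lower at an unadjusted p under 0.05, with a median of −0.17. Neat1, the scaffold of paraspeckles, had 11.8, 9.31 and 15.03 FPKM in WT and 18.05, 10.7 and 15.1 FPKM in Mc4r KO. The groups overlapped, and the log2 fold change of 0.27 had an interval from −0.28 to 0.82 (adjusted p = 0.552). Of 2 X inactivation centre RNAs tested and 8 RNAs of stress and p53 responses, none passed an unadjusted p of 0.05, and the medians were −0.45 and −0.17.

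Of the lncRNAs studied in the heart 13 were tested and none passed an unadjusted p of 0.05, with a median of −0.17. Bvht, or Braveheart, which acts in the commitment of cells to the cardiac lineage, had 9.74, 11.6 and 8.23 FPKM in WT and 13.1, 11.5 and 11.9 FPKM in Mc4r KO (log2 fold change 0.31, SE 0.13, adjusted p = 0.246). Chaer1, an RNA that binds the Polycomb complex in hypertrophy, had 4.14, 3.64 and 2.53 FPKM in WT and 2.97, 2.22 and 2.87 FPKM in Mc4r KO (log2 fold change −0.32, SE 0.21, adjusted p = 0.417). In both, WT and Mc4r KO overlapped by a single library. Among the loci later shown to encode peptides 4 were tested, with 1 higher and 1 lower at an unadjusted p under 0.05 and a median of −0.02. Both are protein-coding entries and no members: 1500011K16Rik, the gene of mitoregulin (log2 fold change 1.04, adjusted p = 0.0663), and Nrep (log2 fold change −0.88, adjusted p = 0.0579).

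H19, an imprinted RNA expressed from the maternal allele and abundant in the fetal heart, varied widely between mice of 1 genotype. It had 3.98, 3.88 and 24.99 FPKM in WT and 11.3, 0.615 and 8.97 FPKM in Mc4r KO. WT replicate 3 was the highest and Mc4r KO replicate 2 the lowest of the 6 libraries. Among the 47 members with at least 100 reads on average, the spread of log2 values within groups was the widest for H19, with a pooled SD of 1.90, and it ranked 3 among all 262. Its log2 fold change of −0.82 had an interval from −3.55 to 1.91, and without WT replicate 3 it was 0.06.

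The same libraries stood out in the atrial markers Nppa, Sln, Myl4, Myl7 and Bmp10. The sum of the 5 was 28.7, 95.2 and 798 FPKM in WT and 137, 6.29 and 43.7 FPKM in Mc4r KO. The highest and the lowest library of the sum were those of H19, the lowest mainly through Nppa. The summed erythrocyte markers were 4497, 859 and 6344 FPKM in WT and 1651, 663 and 620 FPKM in Mc4r KO. All 5 markers of both lists were above 0 in at least 1 library, and their part in the values of H19 was not tested. The remaining imprinted RNAs were steadier: Meg3 had 0.635, 0.570 and 0.919 FPKM in WT and 0.563, 0.611 and 0.644 FPKM in Mc4r KO, and none of 6 tested passed an unadjusted p of 0.05 (median −0.10).

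**Figure D5:**
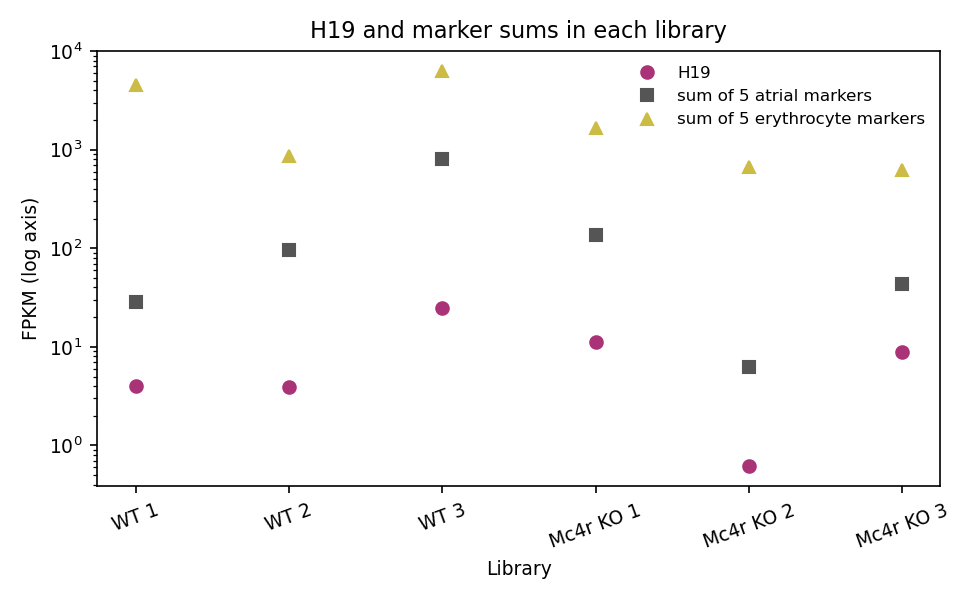
FPKM of H19 (circles) and summed FPKM of 5 atrial (squares) and 5 erythrocyte markers (triangles) in each library, on a log axis. H19 and the atrial sum both peak in WT 3, at 24.99 and 798 FPKM, and both are lowest in Mc4r KO 2, at 0.615 and 6.29 FPKM. The low of the atrial sum comes mainly through Nppa, as Myl4 and Myl7 are lowest in WT 1.

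Of the 262 members, 10 contain microRNA genes. The spans in the deposited table hold 16 of them, with 29 mature microRNAs in the RefSeq table, and 25 of these 29 lie in an annotated exon of the host. In GENCODE M21 the host 6720427I07Rik runs further and also holds Mirlet7f-1 and Mirlet7a-1, which makes 18 genes. Mature microRNAs were not measured here, since the libraries hold polyadenylated RNA, and the sequences below show which microRNAs the measured hosts carry. Each is from RefSeq, with the seed, bases 2 to 8, in capitals. The microRNAs of Mir17hg come first, with one seed shared by miR-17-5p and miR-20a-5p and another by miR-19a-3p and miR-19b-3p. The let-7 seed is shared by let-7d-5p and by let-7f-5p and let-7a-5p of the longer host.
mmu-miR-17-5p: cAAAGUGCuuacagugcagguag
mmu-miR-20a-5p: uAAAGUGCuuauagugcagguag
mmu-miR-19a-3p: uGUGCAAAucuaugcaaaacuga
mmu-miR-19b-3p: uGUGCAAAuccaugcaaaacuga
mmu-miR-18a-5p: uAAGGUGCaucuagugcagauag
mmu-miR-92a-3p: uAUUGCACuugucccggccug
mmu-miR-675-5p: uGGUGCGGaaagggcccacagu
mmu-miR-675-3p: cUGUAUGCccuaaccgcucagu
mmu-let-7d-5p: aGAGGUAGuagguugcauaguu
mmu-let-7f-5p: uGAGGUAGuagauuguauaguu
mmu-let-7a-5p: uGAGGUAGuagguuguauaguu
mmu-miR-30c-5p: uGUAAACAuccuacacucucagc
mmu-miR-101a-3p: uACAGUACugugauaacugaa
mmu-miR-142a-3p: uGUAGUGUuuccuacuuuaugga
mmu-miR-1839-5p: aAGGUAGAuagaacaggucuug

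Mir17hg, host of the polycistron that promotes proliferation, had 0.521, 0.571 and 0.664 FPKM in WT and 0.601, 0.503 and 0.405 FPKM in Mc4r KO (log2 fold change −0.19, SE 0.23, adjusted p = 0.664). The miR-675 pair is processed from H19. 6720427I07Rik, counted over its shorter deposited span with let-7d, had 1.70 to 3.02 FPKM in WT and 1.41 to 2.03 FPKM in Mc4r KO. Gm27028 carries miR-30c, which is abundant in cardiomyocytes, and had 4.27, 4.54 and 3.09 FPKM in WT and 3.23, 3.30 and 3.59 FPKM in Mc4r KO, again with WT replicate 3 below the Mc4r KO libraries. E130102H24Rik carries miR-101a, and its log2 fold change was −0.25 (adjusted p = 0.456).

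Mir142hg, host of miR-142 and a transcript of blood cells, had 1 to 8 reads per library and no detectable difference at this depth. The groups did not overlap in 1 of the hosts: 2900076A07Rik, which carries miR-1839, had 9.61, 8.17 and 8.16 FPKM in WT and 6.53, 7.43 and 7.54 FPKM in Mc4r KO (log2 fold change −0.27, SE 0.11, adjusted p = 0.225). It shares 14.0% of its bases with other genes. In the list of microRNA hosts of all biotypes, 5 were tested and none passed an unadjusted p of 0.05 (median −0.11).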

How the data were processed

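RNA was captured on oligo(dT) beads and sequenced in pairs. Per the labels and the study's methods, the authors cleaned the reads, aligned them to mm10 with HISAT2 2.0.5, counted them on genes with featureCounts and deposited FPKM per gene and library, with length, position and biotype. Which annotation was used, and whether strand was, are not given in the sources used here. In each library, 100% of the products of FPKM and length were whole multiples of a single step (within 0.01 read), which gave the reads back. The floor was 3 reads per library. Floors and the exact intervals of read ratios cover counting error only, while the intervals of limma rest on the fitted spread between libraries within groups.

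The members, lists and tests were chosen with earlier results of these data known. Limma was run on genes whose FPKM averaged 0.1 or more, in version 3.58.1 (R 4.3.3), on log2(FPKM + 0.1), with the empirical Bayes trend, all 6 libraries, no covariate, and Benjamini-Hochberg adjustment over 18035 genes. Fold changes on this scale understate those of low genes. P-values are two-sided, and the script was tested on simulated data. Named were the called members, the 10 of lowest p in each direction, the 10 of highest mean FPKM and list members. Members just beside these, hosts of microRNAs and neighbours were named after their values were seen. Overlaps and shared words of 50 bases came from GENCODE M21. The alternatives were 2 other pseudocounts, 2 other filters, 2 other scalings, limma voom, a replicate block, a GC covariate and leaving out each library. A filter on 10 reads was added after seeing the data.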

Additional observations from a re-analysis of the deposited data

How the results depend on the processing

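The counts of called lincRNAs, 2 in all with 1 higher and 1 lower, depended on the settings. With a pseudocount of 1, with no filter, when scaled outside the mitochondrial chromosome and under quantile normalization, 1 was called, with 0 higher. In that order, these fits called 44, 22, 41 and 49 genes in all, of 26539 tested without a filter and 18035 in the others. With a filter at a mean FPKM of 1, 2 were called higher and 0 lower, beside 147 of 11297 genes. Without overlap, 14 of the 156 members left (8.97%, against 19.6% of all genes) were higher and 17 (10.9%, against 13.9%) lower. Scaling outside the mitochondrial chromosome gave 10 and 50 without overlap, 3.82% and 19.1% against 6.42% and 22.3% of all genes. Limma voom called 4, 2 higher and 2 lower, beside 317 of 18035 genes. The added filter of 10 reads called 0 higher and 2 lower, beside 181 of 14107 genes. The 2 were Gm36670 and E030044B06Rik, as Gm15906 and Gm29156 were under that limit. With the GC of the clean reads as a covariate 0 were called, 0 higher and 0 lower, and 1 call was made over all genes. An unadjusted limma p under 0.05 was then found for 42 of 262 members and 2042 of 18035 genes. Leaving out 1 library gave 0 to 10 called, 0 to 3 higher and 0 to 7 lower, beside 0 to 632 calls over all genes. The same fits gave 27 to 38 higher and 37 to 72 lower without overlap. The highest values came without WT replicate 3, when 14.5% of members were higher and 27.5% lower, against 22.3% and 22.7% of all genes. A pseudocount of 0.01 changed none of the members' counts. The median log2 fold change of the members was -0.08 in the main fit. It ranged from -0.26 when scaled outside the mitochondrial chromosome to -0.01 with the GC covariate. These shifts were under the median SE of a single member, which does not measure the uncertainty of a median over members.

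The replicate numbers did not pair the mice: the correlations of same-numbered deviations were -0.141, 0.00735 and -0.0818. With the replicate block 0 members were called, 0 higher and 0 lower, and 11 calls were made over all genes. An unadjusted limma p under 0.05 was then found for 48 of 262 members and 3444 of 18035 genes.

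Of 620 values for 40 named genes, 566 kept direction and side of the threshold, 18 fell below it, 11 rose past it and 25 changed sign, and the cause was not tested. Only Gm15906 and Gm29156 were called in the main fit, so all 18 losses were theirs. Gm15906 was called in 4 of 15 alternatives and Gm29156 in 7 of 14. The other named genes started uncalled, so keeping their side of the threshold says little about stability. The GC covariate turned Gm10076 to -0.635, 1700020I14Rik to 0.12, 1810058I24Rik to 0.0679, Neat1 to -0.167, Snhg6 to 0.17, Snhg18 to 0.426, Chaer1 to 0.0974 and Snhg20 to -0.0105. Scaling outside the mitochondrial chromosome turned Gm10076 to -0.0603 and Gm5532 to -0.0195, and quantile normalization turned Gm10076 to -0.0572. Gm10076 was -0.349 without WT replicate 1 and -0.234 without Mc4r KO replicate 3. Snhg6 was 0.0188, 0.0176 and 0.00421 without WT replicate 1, WT replicate 2 and Mc4r KO replicate 3. Snhg18 was 0.0135, 0.0902 and 0.0781 without WT replicate 1, WT replicate 2 and Mc4r KO replicate 1. Without WT replicate 3, 2900097C17Rik was 0.0255, Gm5532 -0.0181, H19 0.0592 and Meg3 0.0076, and without Mc4r KO replicate 2, 2900097C17Rik was 0.014 and H19 0.456. Over the fits without 1 library the ranges were -0.349 to 0.412 for Gm10076, -0.0835 to 0.0255 for 2900097C17Rik, -0.0181 to 0.274 for Gm5532, -1.54 to 0.456 for H19, -0.0976 to 0.0188 for Snhg6, -0.272 to 0.0902 for Snhg18 and -0.295 to 0.0076 for Meg3.

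DESeq2 and edgeR were planned and not run, because the deposited unit is FPKM. With 3 mice a group and a median of 26.7 reads, small changes in most members were not detectable.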
